A study of Mus musculus with 8 samples.

Results

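Epithelial junction genes encode the proteins that hold epithelial cells together and seal the space between them. The 9 genes examined here were chosen by name, by a rule that sets no limit on their values: the cadherins Cdh1 and Cdh2, the adhesion molecule Epcam, the claudins Cldn4, Cldn6 and Cldn7, occludin (Ocln), the scaffold Tjp1 and cingulin (Cgn). Earlier results of these data were known when they were chosen. All 9 were listed in both expression tables of the study, which together held 14709 genes.

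Mouse embryonic stem cells (mESCs) were profiled in 8 samples from 4 conditions, 2 per condition, to ask which genes differ in cells with the transcription factor KLF3. In the first experiment, a reporter line was sorted by its KLF3-GFP signal into positive and negative fractions, and 500 cells per sample were sequenced after Smart-seq2, a full-length cDNA protocol for small cell numbers. In the second, KLF3 (KLF3-OE) or, as control, GFP (GFP-OE) was overexpressed over 72 hours before poly(A) RNA sequencing. Each deposited value is the FPKM (fragments scaled to transcript length and to the number mapped) of 1 gene in 1 condition, averaged by the authors over 2 replicates.

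All groups were derived from mESCs from a C57BL/6(F) x 129/sv(M) cross, grown in serum with LIF on gelatin. The sorted groups share a reporter construct in which the N-terminal portion of KLF3, lacking the DNA-binding domain, is joined to GFP, with DsRed as the marker of the construct, so both carry KLF3 fragment sequence and differ in its GFP signal. The overexpressing groups are picked clones of a line with the M2rtTA activator at the R26 locus and an FRT site at Col1A1, selected on feeder cells, in which doxycycline induces the transgene. Since 1 averaged column per condition was deposited, neither the spread between replicates nor the depth of a library is known, and the values carry no error, interval or p-value. Differences are therefore given as log2(FPKM + 1) of the test column minus that of the control column. A gene counted as tested when the mean of its columns reached 1 FPKM, and as higher or lower when past 2-fold on that scale, which understates changes of genes at low levels. The tables came from different library protocols, so levels were compared only within a table, and the differences of the experiments were set side by side without a test. In bulk RNA fewer cells of a type and less RNA per cell cannot be told apart.

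In epithelia, adherens junctions join neighbouring cells through cadherins, which bind catenins and through them the actin cytoskeleton. Tight junctions lie towards the apical side, where claudins and occludin span the membrane and set what passes between cells, and scaffolds such as the Tjp1 and Cgn products tie them to actin. In the early mouse embryo, E-cadherin holds the blastomeres together at compaction, and mESCs keep E-cadherin at their contacts.

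In sorted mESCs, the claudins Cldn6 and Cldn7 and the scaffold Tjp1 were past the 2-fold limit upwards in KLF3-GFP-positive cells, and the claudin Cldn4 was past it downwards. In KLF3-OE mESCs, none of these claudins passed the limit, Cldn6 and Cldn7 lay at 0.76 and 0.94 above GFP-OE, and Tjp1 was lower. Of the 8 members tested in sorted cells, 3 were higher (13.8% of all 9212 genes tested were) and 1 was lower (8.32% of all genes). In overexpressing cells, 0 of 8 were higher (6.60% of all 11179 genes) and 1 was lower (10.1% of all genes). The median difference of the 8 members was 0.66 in sorted cells against 0.03 over all genes tested, and -0.52 in overexpressing cells against -0.18 over all genes. Cdh2 was below the minimum in both tables. As the members were chosen with earlier results of these data known, these shares and medians are a description only.

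**Figure D1:**
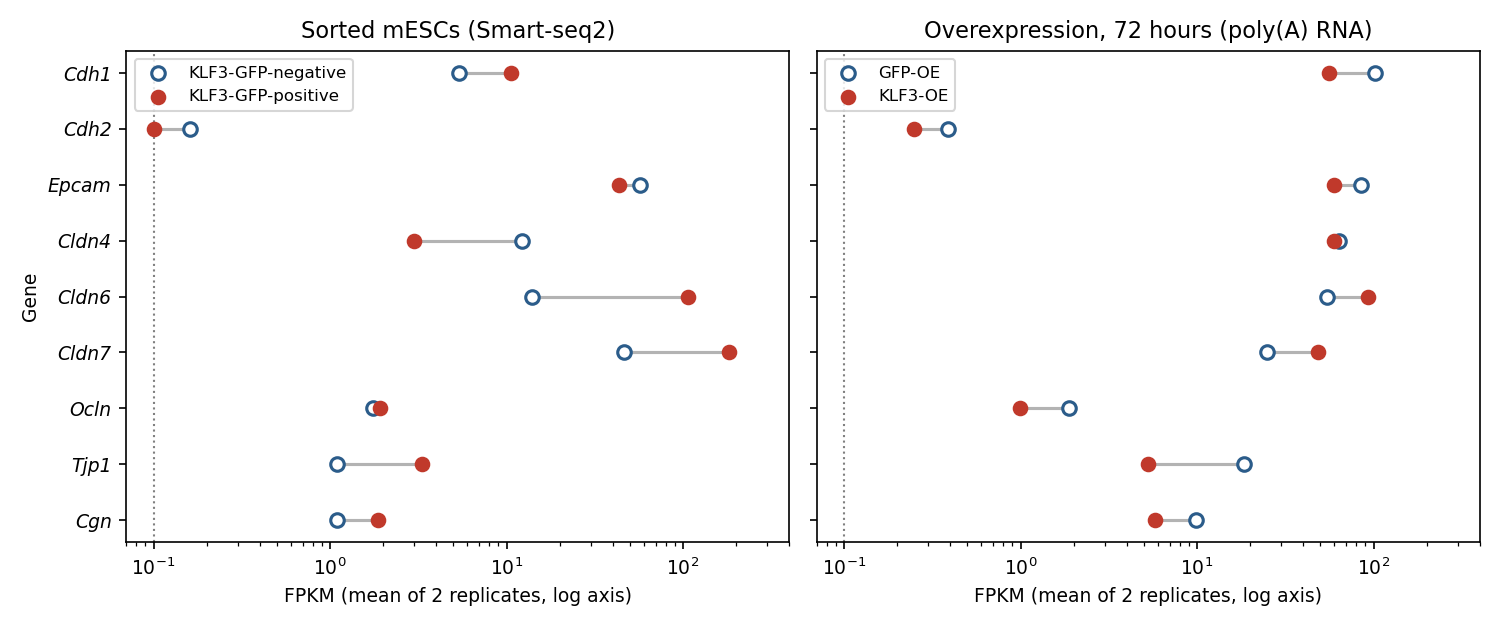
FPKM of the 9 junction genes in the 4 conditions, on a log axis, with 1 point per condition (the authors' mean of 2 replicates, no error available) and the sorted and overexpression experiments in separate panels. The dotted line marks the lowest value of the tables, 0.1 FPKM, where Cdh2 lay in KLF3-GFP-positive cells; Cldn6 and Cldn7 stood higher in the KLF3 condition of both experiments, and Tjp1 stood higher in one and lower in the other.

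Cldn6 and Cldn7 encode tight-junction claudins of early embryonic and simple epithelia. In the negative and positive fractions, Cldn6 was at 13.9 and 107 FPKM (2.85, or 7.68-fold in FPKM), a difference above that of 98.5% of the genes tested. Cldn7 was at 46.2 and 182 FPKM (1.96, or 3.94-fold in FPKM), above 96.0% of the genes. In GFP-OE and KLF3-OE cells, Cldn6 was at 54.6 and 93.3 FPKM and Cldn7 at 24.8 and 48.6 FPKM. Both genes were therefore higher in the KLF3 column of each experiment, and the overexpression differences of 0.76 and 0.94 stayed within 2-fold. With median-ratio scaling Cldn7 reached 1.14 and passed it. With the trend on genomic span removed, Cldn6 was at 0.35 and Cldn7 at 0.53. Of 5 groups of genes by genomic span, the shortest, which holds both, had a median of 0.35 in overexpressing cells.

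Cldn4, which encodes a claudin of simple and transporting epithelia, went the other way in sorted cells. It was at 12.3 and 3.01 FPKM in the negative and positive fractions (-1.73), below all but 1.9% of the genes tested. In overexpressing cells it was at 63.9 and 59.9 FPKM (-0.09), with +0.11 under median-ratio scaling, so that its sign there depended on the scaling. The ratio of Cldn6 to Cldn4 was 1.13 and 35.4 in the negative and positive fractions, and 0.854 and 1.56 in GFP-OE and KLF3-OE cells.

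The claudin family as a whole was described by its summed FPKM. In sorted cells the 9 listed claudins summed to 81.7 and 297 FPKM in the negative and positive fractions (3.63-fold), while the sum over all genes of the table changed 1.05-fold. Without Cldn6 and Cldn7 the sum went from 21.6 to 7.61 FPKM. Cldn7 made up 56.5% and 61.5% of the sum, Cldn6 16.997% and 36.0%, and Cldn4 15.0% and 1.01%. In overexpressing cells the 10 listed claudins summed to 159 and 219 FPKM (1.38-fold), beside a change of 1.36-fold in the sum of all genes, and their share of the table was 0.0259% and 0.0262%. There Cldn4 fell in share from 40.3% to 27.4%, with Cldn6 at 34.4% and 42.7% and Cldn7 at 15.6% and 22.2%.

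Within each experiment, the order of the members by FPKM differed between the columns, with no spread known to say which neighbours differ. The order was not compared between the experiments, whose library protocols and cell lines differ. KLF3-GFP-negative cells had Epcam highest, followed by Cldn7, Cldn6, Cldn4 and Cdh1, whereas KLF3-GFP-positive cells had Cldn7 and Cldn6 above Epcam and Cdh1. GFP-OE cells had Cdh1 highest, then Epcam, Cldn4, Cldn6 and Cldn7, and KLF3-OE cells had Cldn6 highest, with Epcam, Cldn4 and Cdh1 close together between 55.9 and 60.0 FPKM.

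**Figure D2:**
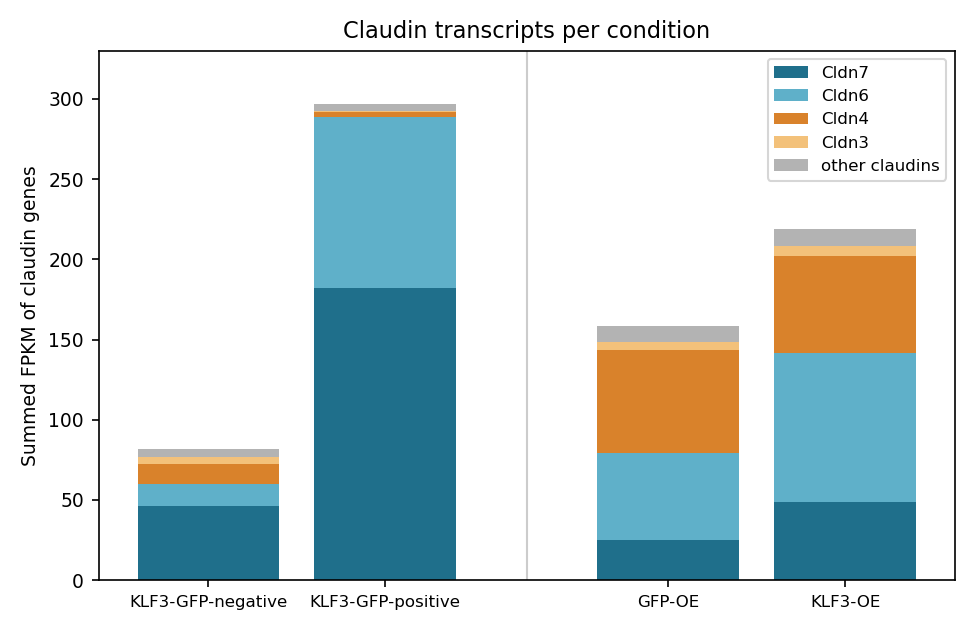
Summed FPKM of the listed claudins in each of the 4 conditions, as bars from 0 stacked by gene. The bar of KLF3-GFP-positive cells, of which Cldn4 made up 1.01%, reached 297 FPKM against 81.7 FPKM in KLF3-GFP-negative cells, and 219 against 159 FPKM in KLF3-OE and GFP-OE cells.

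The genes next to Cldn4 and Cldn6 on the chromosome were both lower in the positive fraction, Cldn4's neighbour past the limit. Cldn3, which lies 39279 bp from Cldn4 with 0 protein-coding genes between them, was at 4.40 and 0.740 FPKM (-1.63), and at 5.01 and 6.72 FPKM in GFP-OE and KLF3-OE cells (0.36, or -0.24 with the trend on genomic span removed). An exon of Cldn3 overlaps the antisense gene Wbscr25, and Smart-seq2 does not mark the strand of a read, so that reads of the overlap cannot be assigned there. Cldn9, 137 bp from Cldn6, was at 1.58 and 0.520 FPKM (-0.76, or -1.44 with a pseudocount of 0.1) while Cldn6 was higher. Cldn5 alone among the other claudins tested passed the limit in overexpressing cells (0.320 and 1.70 FPKM, 1.03), and it was within the limit with the trend on genomic span (0.45) or GC content (0.84) removed. Cldn12 was at 0.990 and 2.35 FPKM in sorted cells and at 8.01 and 5.99 FPKM in overexpressing cells, and Cldn19 was at 1.5 and 0.100 FPKM in sorted cells, below the minimum mean. How reads shared by similar claudins were split in counting is not given in the sources used here.

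The upstream sequences of the 4 members that passed the limit in either experiment are shown because KLF3 is known to bind CACCC boxes and the SNAI1 and ZEB repressors bind CACCTG E-boxes in promoters of epithelial genes. They are the 250 bases before the annotated start in RefSeq (GRCm38.p6, the assembly of mm10), written 5' to 3' on the gene's strand, with matches to both motifs in capitals. On the other strand, CACCC reads GGGTG. The E-box there reads CAGGTG. The motifs do not overlap each other in these sequences.
Cldn6 promoter, chr17:23679115-23679364, plus strand: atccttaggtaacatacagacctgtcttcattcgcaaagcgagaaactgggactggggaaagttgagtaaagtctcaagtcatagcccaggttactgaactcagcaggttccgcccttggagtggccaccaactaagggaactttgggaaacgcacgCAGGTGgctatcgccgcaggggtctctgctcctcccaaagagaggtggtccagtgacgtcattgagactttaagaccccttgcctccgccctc
Cldn7 promoter, chr11:69964529-69964778, plus strand: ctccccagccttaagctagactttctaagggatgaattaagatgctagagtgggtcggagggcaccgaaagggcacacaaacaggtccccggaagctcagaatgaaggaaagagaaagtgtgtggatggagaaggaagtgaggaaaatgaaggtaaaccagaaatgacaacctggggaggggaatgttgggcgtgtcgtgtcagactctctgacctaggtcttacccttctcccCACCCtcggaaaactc
Cldn4 promoter, chr5:134946935-134947184, minus strand: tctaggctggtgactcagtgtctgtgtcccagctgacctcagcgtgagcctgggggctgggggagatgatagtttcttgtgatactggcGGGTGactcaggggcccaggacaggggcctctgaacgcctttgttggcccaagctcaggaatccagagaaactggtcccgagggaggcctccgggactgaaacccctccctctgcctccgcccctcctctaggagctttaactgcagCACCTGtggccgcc
Tjp1 promoter, chr7:65371245-65371494, minus strand: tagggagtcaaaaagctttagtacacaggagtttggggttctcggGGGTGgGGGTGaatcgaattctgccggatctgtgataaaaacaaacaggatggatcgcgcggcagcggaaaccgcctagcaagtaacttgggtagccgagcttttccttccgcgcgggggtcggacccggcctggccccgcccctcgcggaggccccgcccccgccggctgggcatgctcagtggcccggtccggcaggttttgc
CACCC was found in 52.0% and CACCTG in 17.2% of all 32851 promoters. The Cldn6 sequence held 0 matches to CACCC and 1 to CACCTG, Cldn7 1 and 0, Cldn4 1 and 1, and Tjp1 2 and 0. A second annotated Cldn7 start held 0 and 2. Promoter entries of 7 members were searched, and 6 of these members held CACCC in at least 1 entry. The percentages over all promoters are per entry. Counted that way, 6 of the 9 entries of these members held CACCC and 5 held CACCTG. Cdh1 and Cdh2 were not among the members searched, so these counts do not cover them. A match is a description of letters, and none was related to binding here.

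The scaffolds and occludin lay above 0 in sorted cells and below 0 in overexpressing cells as deposited. Tjp1, whose product links occludin and claudins to actin, was at 1.10 and 3.33 FPKM in the negative and positive fractions (1.04), and at 18.5 FPKM in GFP-OE and 5.30 FPKM in KLF3-OE cells (-1.63). The sorted call was lost under quantile normalization (0.95) and with the trend on genomic span or transcript GC content removed (0.92 and 0.98), whereas the overexpression call held under every alternative, from -1.80 to -1.13. Cgn, which encodes a scaffold that binds the Tjp1 product, was at 1.10 and 1.88 FPKM (0.46) in sorted cells and at 9.84 and 5.76 FPKM (-0.68) in overexpressing cells. Ocln was at 1.76 and 1.91 FPKM (0.08, or -0.04 with quantile normalization) and at 1.89 and 0.990 FPKM (-0.54).

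Cdh1, which encodes E-cadherin, was at 5.36 and 10.6 FPKM in the negative and positive fractions (0.87, just within 2-fold), and at 102 FPKM in GFP-OE and 55.9 FPKM in KLF3-OE cells (-0.85). Quantile normalization moved the latter to -1.11, past the limit. Cdh1 made up 87.7% and 95.5% of the summed FPKM of Cdh1, Cdh2 and Cdh3 in sorted cells and 88.4% and 90.6% in overexpressing cells. Cdh2, which encodes N-cadherin of mesenchymal and neural cells, was at 0.160 and 0.100 FPKM and at 0.390 and 0.250 FPKM, so that its level lay at or near the lowest value in all 4 conditions. Epcam, a homophilic adhesion molecule that associates with claudins, was at 56.7 and 43.6 FPKM (-0.37) and at 85.3 and 60.0 FPKM (-0.50), lower in the KLF3 column of both experiments and within 2-fold.

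**Figure D3:**
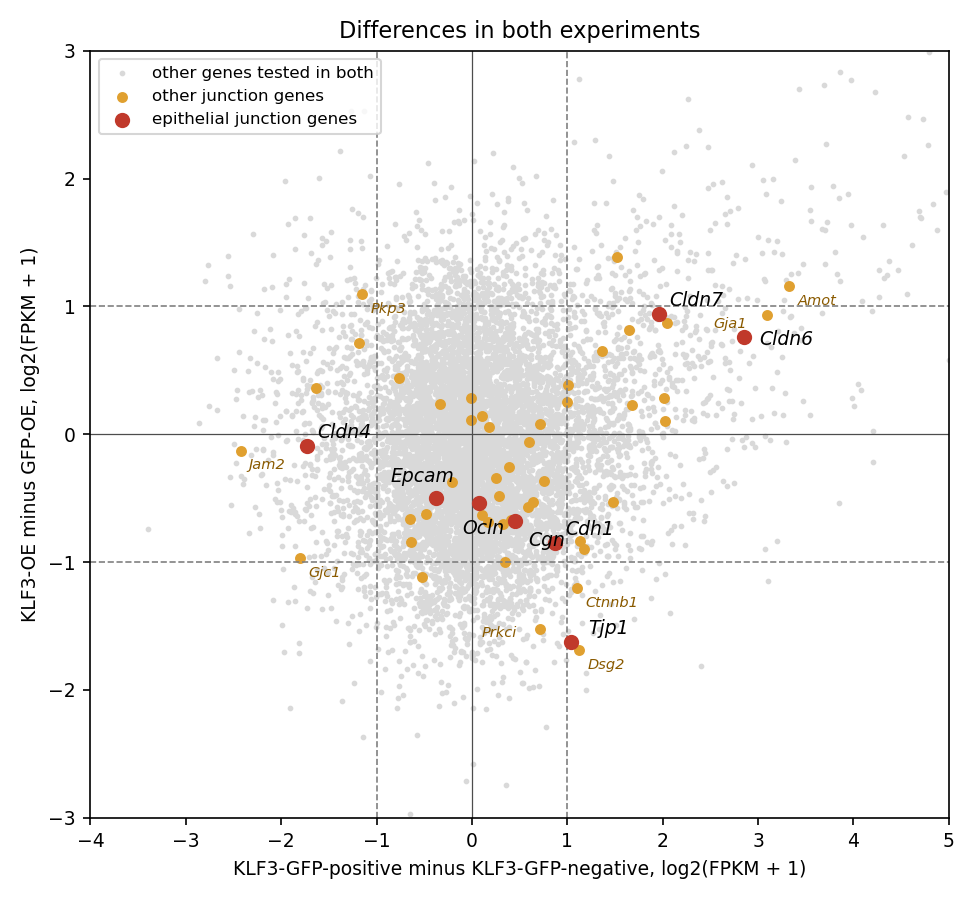
Difference in log2(FPKM + 1) in overexpressing cells (vertical) against that in sorted cells (horizontal) for genes tested in both, with dashed lines at 2-fold and grey points beyond the axes not drawn. Cldn6 and Cldn7 lay up and to the right, Cldn4 to the left, and Tjp1 to the right and below.

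Of the 8 members tested in both experiments, as deposited, 2 (Cldn6 and Cldn7) were above 0 in each and 2 (Epcam and Cldn4) were below 0 in each. The other 4 (Cdh1, Tjp1, Ocln and Cgn) were above 0 in sorted and below 0 in overexpressing cells. Of all 8887 genes tested in both, 2111 were above 0 in each, 2400 were below 0 in each, and 27.9% showed the last pattern. Scaling changed the sign of Cldn4 in overexpressing cells (0.11 with median-ratio scaling) and of Ocln in sorted cells (-0.04 with quantile normalization). Opposite calls past 2-fold were made for 1 member, Tjp1, and for 109 of the 8887 genes.

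Other junction genes gave the context, from 5 lists of 83 genes. In sorted cells 46 were tested, of which 15 were higher and 5 lower (median 0.40). These are 32.6% and 10.9%, beside 13.8% and 8.32% of all genes tested. In overexpressing cells 58 were tested, of which 5 were higher and 7 lower (median -0.32). These are 8.6% and 12.1%, close to the 6.60% and 10.1% of all genes. The counts of single lists and of markers below are to be read beside the same shares over all genes. The overexpression split depended on scaling: 41.7% of calls were higher as deposited, 80.0% with median-ratio scaling (8 higher and 2 lower). The same scaling moved the split over all genes from 39.4% to 62.5% and their median difference from -0.18 to 0, so a difference in this experiment is best read against that shift.

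Adherens-junction genes included the catenin Ctnnb1, the partner of E-cadherin, at 6.79 and 15.7 FPKM in sorted cells (1.10) and at 163 and 70.3 FPKM in overexpressing cells (-1.21, or -0.997 with median-ratio scaling, within the limit). In sorted cells 4 of 12 tested adherens genes were higher and 0 lower, the others being Ctnnd1 (1.18), Lmo7 (1.14) and Nectin2 (1.01). Quantile normalization took Ctnnb1 (0.95) and Nectin2 (0.86) back within the limit. In overexpressing cells 1 of 15 was higher and 4 were lower, Ctnnb1, Plekha7 (-1.12), the actin linker Vcl (-1.09) and the cadherin Cdh3 (-1.08). With median-ratio scaling none of these 4 stayed past the limit. Of the other tight-junction genes, 7 of 22 were higher in sorted cells, led by the scaffold Amot (0.100, the lowest value, to 10.03 FPKM, 3.33), the polarity scaffold Patj (2.01) and the adhesion molecule Cxadr (1.68), and 1 was lower, the adhesion molecule Jam2 (92.1 to 16.3 FPKM, -2.43). In overexpressing cells 2 of 28 were higher, Sympk (1.38), which also acts in mRNA 3' end processing, and Amot (1.16), and 2 were lower, the polarity kinase Prkci (30.03 to 9.80 FPKM, -1.52) and the scaffold Mpdz (-1.08, within the limit with median-ratio scaling).

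Desmosomal and gap-junction genes did not follow 1 direction. The desmosomal cadherin Dsg2 was higher in sorted cells (1.13) and lower in overexpressing cells (11.8 to 2.96 FPKM, -1.69), and the plakophilin Pkp3 was lower in sorted cells (51.9 to 22.8 FPKM, -1.15) and higher in overexpressing cells (18.2 to 40.1 FPKM, 1.10, or 0.92 with the trend on GC content removed). Perp, a desmosomal membrane protein gene, was lower in sorted cells (-1.19). The connexin Gja1 was at 3.65 and 38.9 FPKM in sorted cells (3.10), with the connexin Gjb5 also higher (2.04) and Gjc1 at 25.9 and 6.73 FPKM lower (-1.80). In overexpressing cells 0 of 5 gap-junction genes passed the limit as deposited, and 2 did with median-ratio scaling, Gja1 (1.13) and Gjb5 (1.07).

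**Figure D4:**
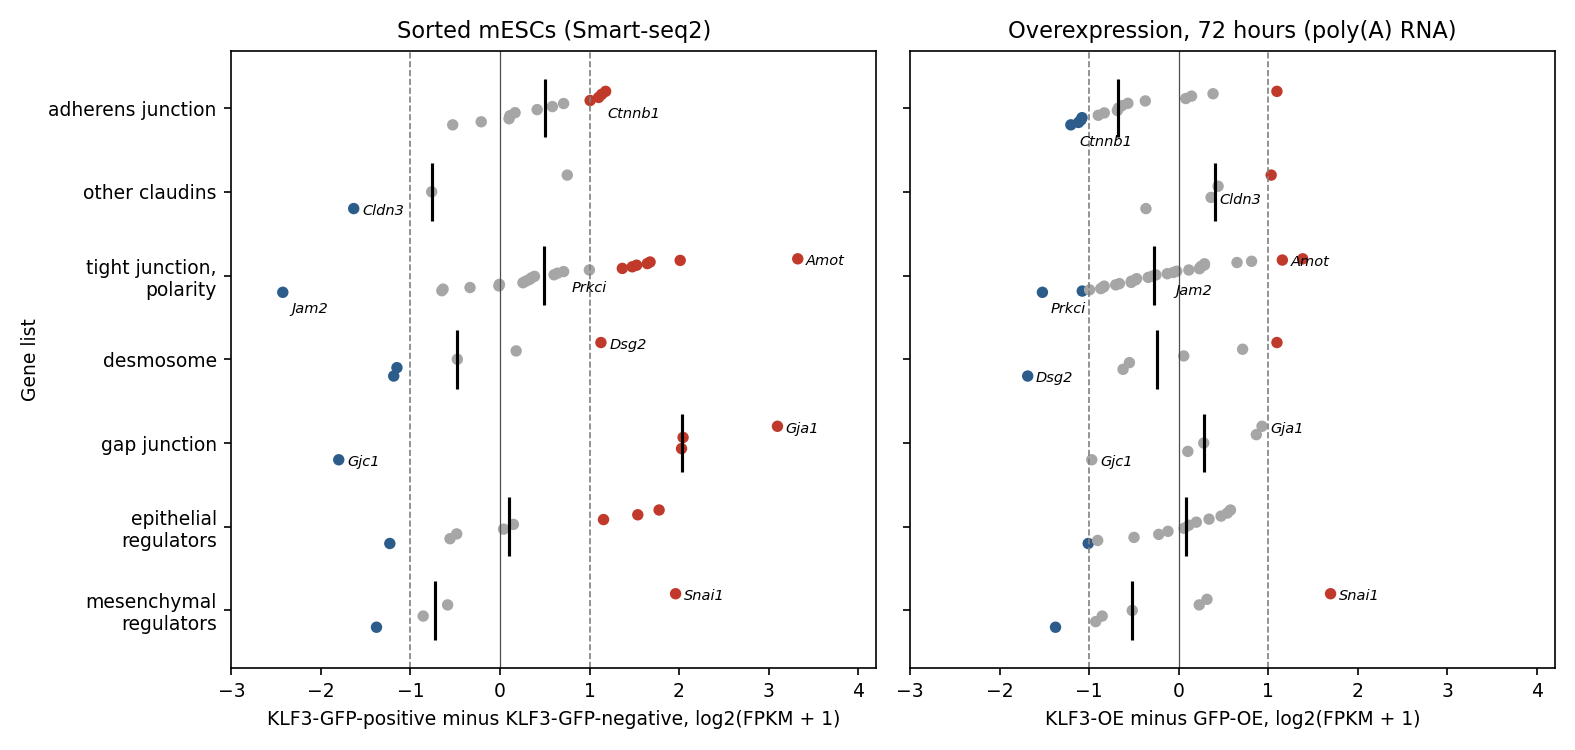
Difference in log2(FPKM + 1) of the tested genes of each junction list, 1 point per gene (red higher, blue lower, grey within 2-fold), with epithelial and mesenchymal regulators below, black bars at list medians and dashed lines at 2-fold. Amot and Gja1 led upwards in sorted cells, and Dsg2 and Prkci lay lowest in overexpressing cells.

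Regulators of epithelial state include transcription factors and membrane proteases of epithelial cells. Of these, 3 of 8 were higher in sorted cells (Elf3, 1.78; Prss8, 1.54; St14, 1.16) and the transcription factor Grhl3 was lower (-1.23), and 0 of 12 were higher and Grhl3 was lower in overexpressing cells (-1.01, within the limit with median-ratio scaling). Snai1, a known repressor of Cdh1, was higher in both experiments, at 0.420 and 4.53 FPKM (1.96) and at 0.750 and 4.67 FPKM (1.70). Cdh1 lay above 0 in the first and below 0 in the second, within 2-fold in both as deposited, and a link to Snai1 was not tested. The mesenchymal gene Vim was lower in sorted cells (12.4 to 4.15 FPKM, -1.38) and Fn1 in overexpressing cells (163 to 62.1 FPKM, -1.38, or -0.89 with the trend on genomic span removed). In the other experiment both were within the limit, Vim at 0.315 in overexpressing cells and Fn1 at -0.86 in sorted cells. Of the mesenchymal list, 1 gene was higher and 1 lower of 4 tested in sorted cells, and likewise of 7 tested in overexpressing cells.

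Markers of other cells moved with these groups, and their part in the results was not tested. All 15 primitive endoderm markers were higher in KLF3-GFP-positive cells, with summed FPKM of 468 and 3863, and 14 of 15 in KLF3-OE cells, with 1183 and 2361. Of 10 pluripotency markers, 6 were lower in sorted cells and 2 in overexpressing cells. Trophoblast markers were higher in 4 and lower in 1 of 7 tested in sorted cells, and higher in 4 of 9 in overexpressing cells. In sorted cells the keratins Krt8 and Krt18 led, Plac1 (2.47) and Tead4 (1.06) were also higher, and Ascl2 was lower (-1.04). Tfap2c lay at -0.94, within the limit. Cdx2, Gata3, Krt7 and Hand1 were below the minimum mean there, and Elf5 was not listed. Feeder and fibroblast markers summed to 25.9 and 83.9 FPKM in overexpressing cells, most of it Tagln (14.7 to 62.1 FPKM), whereas the collagen Col1a1 was at 0.230 and 0.290 FPKM and Col3a1, Postn, Lum and Dcn were not listed. Klf3 itself was at 107 and 122 FPKM in sorted cells and at 58.7 and 47.8 FPKM in GFP-OE and KLF3-OE cells. The reporter's own Klf3 fragment may be counted in the former. The induced Klf3 was codon-optimized, so this value does not measure it.

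The difference in overexpressing cells moved with the length of the gene. In 5 groups of genes by genomic span, the median difference was 0.35, -0.01, -0.22, -0.44 and -0.49 from the shortest to the longest, against -0.03 to 0.12 in sorted cells. The tight-junction claudins are short genes, with Cldn4 spanning 1.82 kb, Cldn6 3.08 kb and Cldn7 3.11 kb, and Tjp1 (75.1 kb), Cdh1 (66.9 kb) and Ocln (56.2 kb) are long. Epcam (15.1 kb) and Cgn (26.4 kb) lie between them in length. With the trend removed, the overexpression differences were -0.63 for Cldn4, 0.35 for Cldn6 and 0.53 for Cldn7. Those of Epcam and Cgn were -0.39 and -0.40, from -0.50 and -0.68 as deposited. Cdh1 was at -0.37, Ocln at -0.07 and Tjp1 at -1.14, and Tjp1 alone stayed past the limit. The part of gene length in the values as deposited was not tested further.

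**Figure D5:**
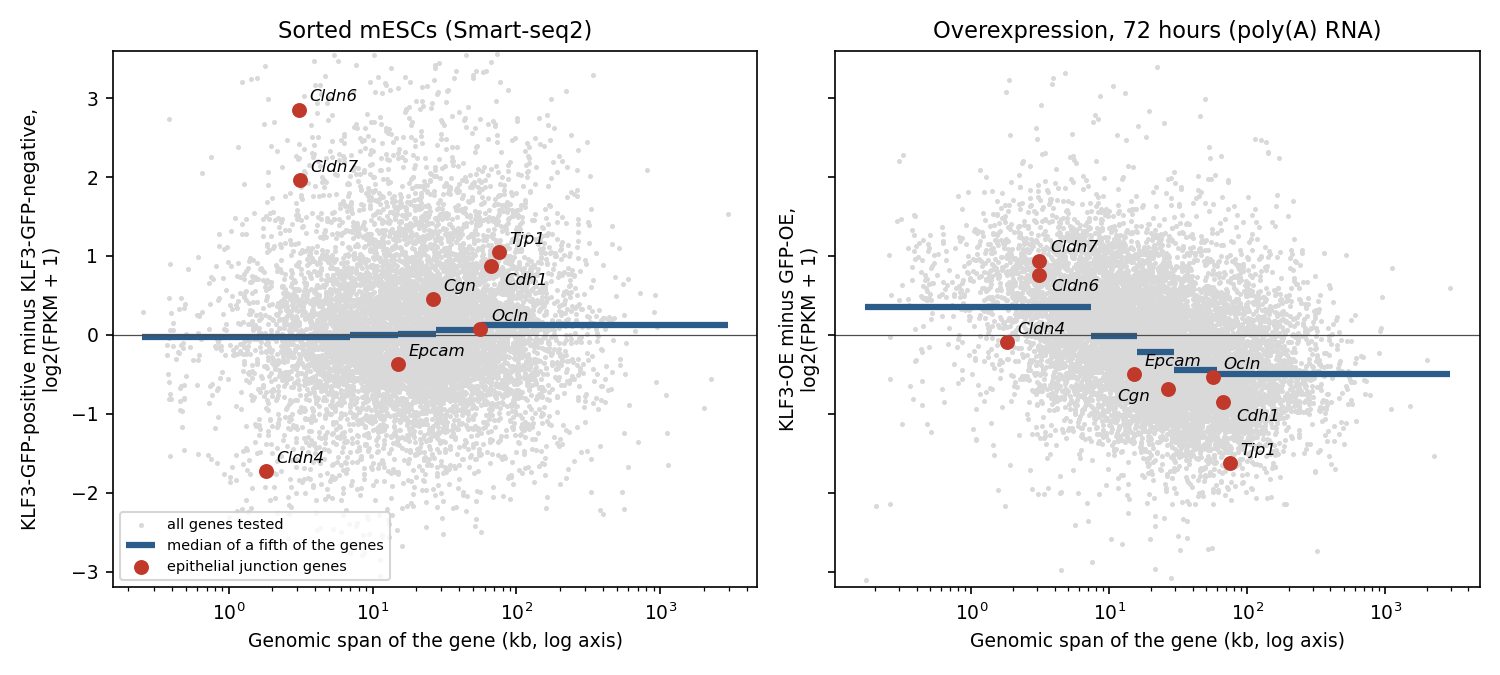
Difference in log2(FPKM + 1) against the genomic span of the gene (kb, log axis) in the sorted and the overexpression experiment, with bars at the median of each of 5 groups of genes and grey points beyond the axes not drawn. In overexpressing cells Cldn6 and Cldn7 lay above the median of the shortest genes and Cldn4 below it. Tjp1, Cdh1, Cgn, Ocln and Epcam lay below the lowest median, Tjp1 furthest.

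The positions of the members (mm10, from the deposited tables, starts counted from 1) give their place in the genome. Cldn6 lies at chr17:23679365-23682446 and Epcam at chr17:87635979-87651106, Cldn7 at chr11:69964779-69967885, Cldn4 at chr5:134945119-134946934, Tjp1 at chr7:65296165-65371239, Cdh1 at chr8:106603351-106670246, Ocln at chr13:100496507-100552718 and Cgn at chr3:94760069-94786492. Their identifiers in the tables are ENSMUSG00000023906 (Cldn6), ENSMUSG00000018569 (Cldn7), ENSMUSG00000047501 (Cldn4), ENSMUSG00000030516 (Tjp1), ENSMUSG00000000303 (Cdh1), ENSMUSG00000024304 (Cdh2), ENSMUSG00000045394 (Epcam), ENSMUSG00000021638 (Ocln) and ENSMUSG00000068876 (Cgn). The Cldn4 transcripts have 1 exon at most, those of Tjp1 up to 28, and no exon of the 9 members overlaps an exon of another gene in GENCODE M21.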

How the data were processed

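RNA-seq of 8 mESC samples was deposited as 1 table per experiment. Per the submitters' processing notes and the methods, the authors aligned reads to mm10 with STAR (version 2.6.0 in the notes; the methods name another version) using the GENCODE annotation and computed FPKM with Cufflinks (version 2.2.1). The deposited FPKM columns are averages of 2 replicates, 1 column per condition, with 0.1 as the lowest value. Columns were mapped to conditions by name.

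Differences were computed as log2(FPKM + 1) within a table. Genes averaging 1 FPKM or more counted as tested, and a call was a difference past 2-fold. No test, interval or leave-one-out was possible on averages. The alternatives were a pseudocount of 0.1, a floor of 0.1, no minimum, a minimum mean of 5 FPKM, median-ratio scaling, quantile normalization, and removal of lowess trends (fraction 0.3) on genomic span, also after median-ratio scaling, and on transcript GC content. Named were the members and, in each list, the up to 4 genes past the limit with the largest differences, and other claudins reaching 1 FPKM; some genes this selects are not reported. Members and lists were chosen with earlier results of these data known. GENCODE M21 and RefSeq GRCm38.p6 gave annotation and promoters. The scripts were tested on simulated data. Python 3.11.15, pandas 2.3.3, scipy 1.17.1 and statsmodels 0.14.6 were used.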

Additional observations from a re-analysis of the deposited data

How the results depend on the processing

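No paired analysis was possible because each condition was deposited as 1 averaged column, and for the same reason no replicate could be left out. Among the 9 alternatives, no minimum and a mean of at least 5 FPKM change only which genes count as tested. A member's value cannot move under them, so the counts kept include values that were fixed in advance. Over all 9, 62 of 69 member values in sorted cells kept their call and sign. Of the rest, 4 lost the call, all Tjp1, and 3 changed sign within the limit, all Ocln. In overexpressing cells 68 of 71 kept theirs, Cldn4 changed sign within the limit once, and 2 gained a call. These were Cldn7 with median-ratio scaling, making 1 member higher, and Cdh1 with quantile normalization, making 2 members lower with Tjp1. Of the other junction genes in overexpressing cells, 7 were lower as deposited and 11 with a pseudocount of 0.1 or a floor of 0.1, 2 with median-ratio scaling, and 3 with quantile normalization or the span trend removed, before or after median-ratio scaling. Of these genes 5 were higher as deposited, 2 at a mean of at least 5 FPKM and 8 with median-ratio scaling. Over all genes in overexpressing cells, 1133 were lower as deposited, 1819 with a pseudocount of 0.1, 1912 with a floor of 0.1, 699 with median-ratio scaling, 711 with quantile normalization, 587 or 610 with the span trend removed and 608 with the GC trend removed, and 738 were higher as deposited against 1164 with median-ratio scaling. The depth of the libraries is unknown, and values near 0.1 FPKM cannot be compared.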

Other observations

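The genes whose pair of differences lay nearest to that of a member, by Euclidean distance over the 2 differences and among the 8887 genes tested in both experiments, are given as a description. They were Creb3 (1.94 in sorted and 0.97 in overexpressing cells) and Capn2 for Cldn7, Dpp7 (2.81 and 0.65) and Agpat4 for Cldn6, Cyct (-1.75 and -0.11) and Qprt for Cldn4, and Ptbp2 (1.08 and -1.65) and Tmf1 for Tjp1. For Cdh1 they were Iqgap3 and Senp5, for Epcam Zmynd11 and Fbxo25, for Ocln Nap1l4 and Asb3, and for Cgn Lpin1 and Mtmr9.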
